A study of Homo sapiens with 16 samples.

Results

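The 10 genes CPSF1, CPSF2, CPSF3, CPSF4, CPSF6, CPSF7, NUDT21, FIP1L1, WDR33 and SYMPK encode the factors that recognise the polyadenylation signal and cut the pre-mRNA there. They were taken by name from the 2 short-read tables, which list 61906 genes and 251295 transcripts, and together they hold 114 of those transcripts. CPSF7 was selected on measured values, its transcript shares having differed between the siRNAs in both cell lines, so its values in that comparison are described here without a test. The study depleted HNRNPH1, an RNA-binding protein that binds runs of G and regulates splicing, with a small interfering RNA (siHNRNPH1). Controls received a negative control siRNA (siNegative). Both siRNAs were used at 20 nM with the same lipid reagent, and RNA was taken 48 h after transfection. The cells were HEK-293T, a line from human embryonic kidney that expresses the large T antigen of SV40, and HT-1080, a line from a human fibrosarcoma. Each of the 4 groups had 3 short-read libraries from replicates described as biological, and 1 pool of these replicates for full-length cDNA sequencing (IsoSeq). The depletion is transient, both lines are established and transformed or tumour-derived, and the sequence of neither siRNA is given in the sources used here.

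Most human mRNAs get their 3′ end by cleavage a short distance downstream of a hexamer such as AAUAAA, followed by addition of a poly(A) tail. CPSF1, WDR33, CPSF4 and FIP1L1 form the module that binds the hexamer and recruits poly(A) polymerase. CPSF3 is the endonuclease that makes the cut, CPSF2 is its inactive relative, and SYMPK is the scaffold that holds them. NUDT21 binds UGUA motifs upstream of the site and pairs with CPSF6 or CPSF7 in cleavage factor Im (CFIm), which is known to influence which of several poly(A) sites a gene uses.

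The HEK-293T libraries held 107.7 to 121 M expected counts each (M for mega), while those of HT-1080 held 27.3 to 32.7 M, so the same fold change was measured with fewer counts in HT-1080. The least counted of the 10 genes, FIP1L1, still had at least 954 counts in every HT-1080 library. Replicate 1 of HEK-293T siHNRNPH1 stood apart. Across 19966 genes its log2 CPM (counts scaled to a common library total) correlated with the other replicates of its group at a Pearson r of 0.962 and 0.965, whereas those replicates reached 0.999 with each other. Genes are not independent replicates, so r describes the libraries. Changes of gene level in HEK-293T are therefore given with and without this library. In HT-1080, siNegative replicate 2 stood apart to a lesser degree. Across 16145 genes its r was 0.9959 and 0.996 with replicates 1 and 3, which reached 0.9981 with each other. The targeted gene HNRNPH1 (ENSG00000169045.17) had 1107, 1105 and 1121 CPM in the 3 HEK-293T siNegative libraries against 234, 376 and 394 CPM with siHNRNPH1. HT-1080 gave 635, 606 and 617 CPM against 232, 231 and 228 CPM. Every depleted library was low, replicate 1 of HEK-293T lowest in its group, and the log2 changes were -1.76 and -1.49 (edgeR, Benjamini-Hochberg (BH) adjusted p = 0.00939 and 6.76e-09). With replicate 1 left out, the HEK-293T change was -1.58 (6.94e-21). Of 6 genes typical of HT-1080, the summed level was 4394 to 6871 CPM in HT-1080 libraries and 5.91 to 8.91 CPM in HEK-293T libraries. For 6 genes typical of HEK-293T the sums were 522 to 816 CPM in HEK-293T and 102.0 to 130.6 CPM in HT-1080, where CDH2 was at 90.5 CPM with siNegative against 92.4 CPM in HEK-293T. S100A4 of the first list and SOX11 of the second were at or near 0 in both lines and so did not tell them apart. In bulk RNA, fewer cells with a transcript and less of it per cell cannot be told apart.

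In HT-1080, depletion of HNRNPH1 went with lower mRNA of the UGUA-binding subunit NUDT21, of CPSF4 and of CPSF6, and with higher SYMPK and CPSF2. Of the 9 factors other than CPSF7, 7 passed the test in HT-1080 (edgeR BH-adjusted p under 0.05), 2 higher and 5 lower. The background was high, since 65.3% of all 16145 tested genes passed there, 32.7% higher and 32.6% lower, so the count itself does not set these factors apart. Their median log2 change was -0.14, against 0.01 for all genes tested. In HEK-293T, edgeR called 0 of the 9 with all libraries, where 10% of 19966 genes passed, 5.12% higher and 4.88% lower. At an unadjusted p under 0.05 it was also 0, against 5267 of the 19966 genes. DESeq2 called 0, where 10.3% of 33482 genes passed. Without replicate 1 of siHNRNPH1, 7 of the 9 passed in HEK-293T, 4 higher and 3 lower, where 61.8% of genes passed, 30.5% higher and 31.3% lower. Counting CPSF7, the CPM of the siRNA groups did not overlap for 4 of the 10 in HEK-293T and 8 of the 10 in HT-1080. The shares among all tested genes were 43.7% and 70.5%.

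**Figure D1:**
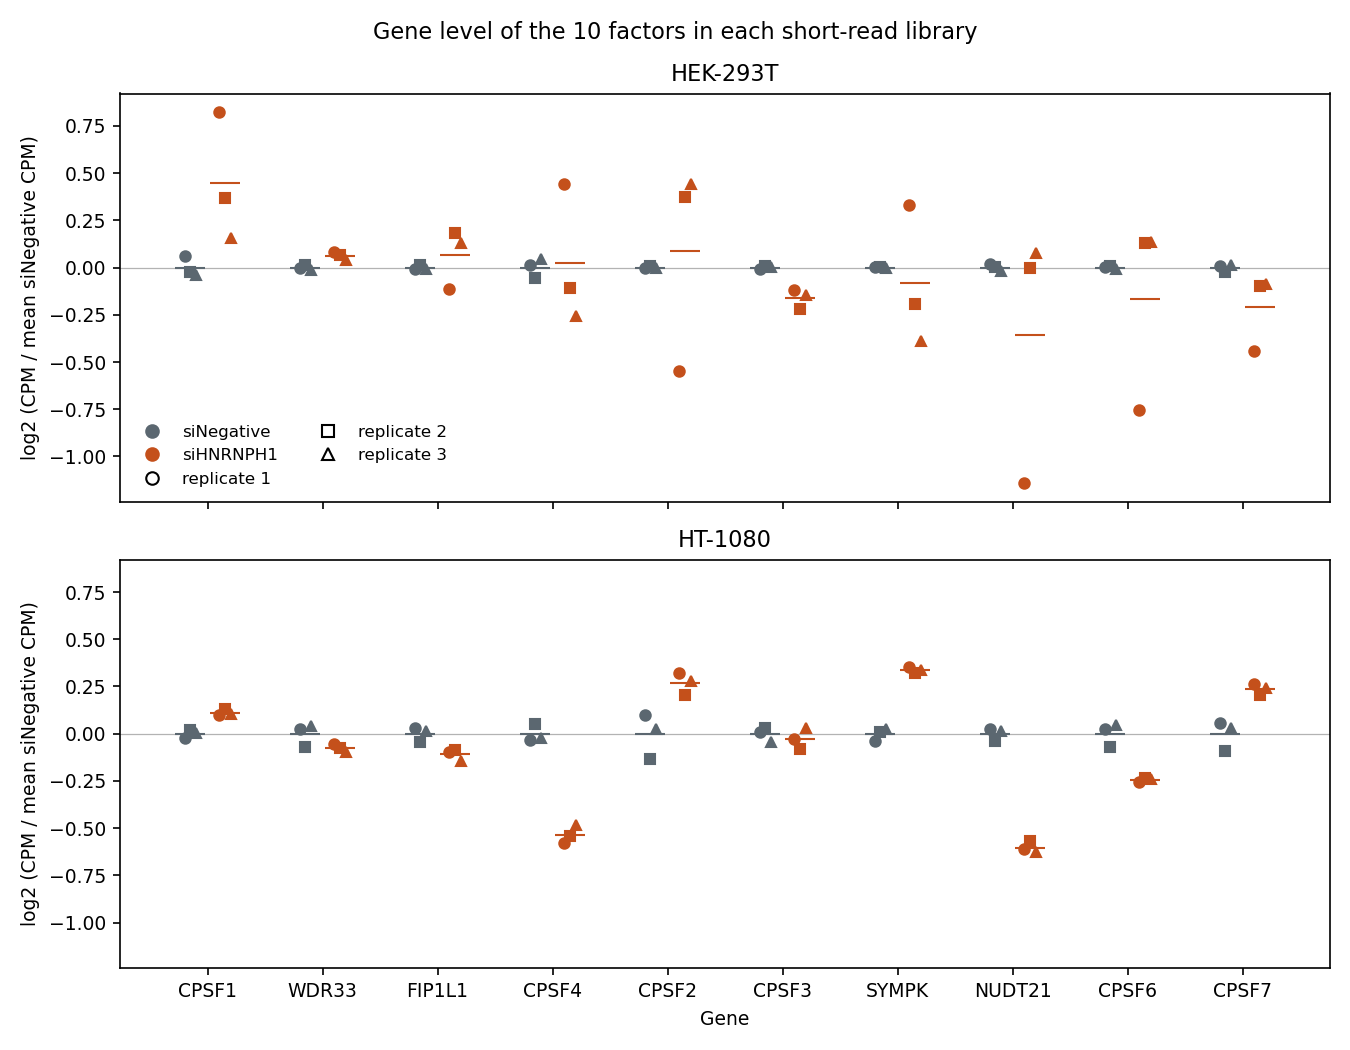
Level of each factor in each short-read library as log2 of its CPM over the mean siNegative CPM of that line (points, shape by replicate; short lines, group means of the plotted values; n = 3). In HEK-293T replicate 1 of siHNRNPH1 (circles) lies away from the other 2 replicates for most genes, while in HT-1080 all 3 siHNRNPH1 libraries of NUDT21 and CPSF4 lie below all siNegative libraries.

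Gene positions are given as spans of the full-length models on GRCh38.p13. Among the factors that bind the hexamer, CPSF4 moved most in HT-1080. CPSF4 (ENSG00000160917.15, chromosome 7, plus strand, 99438904-99457372), a zinc finger protein that contacts the signal, stood at 62.6, 66.5 and 63.2 CPM in HT-1080 with siNegative and at 42.9, 44.0 and 45.8 CPM with siHNRNPH1. All 3 depleted libraries lay below all controls. The log2 change was -0.60 (SE 0.05, edgeR BH-adjusted p = 4.65e-06). In HEK-293T the control values of 43.0, 40.9 and 43.9 CPM were straddled by 57.8, 39.5 and 35.7 CPM with siHNRNPH1, replicate 1 being the highest of all. The log2 change there was 0.04 (SE 0.23, edgeR BH-adjusted p = 0.926), and it turned to -0.24 (SE 0.04, edgeR BH-adjusted p = 9.57e-05) without that library. The sign of the HEK-293T value thus rested on 1 library. The full-length models also show transcription from the opposite strand at CPSF4, WDR33, FIP1L1 and CPSF1, and whether the counts used strand is not given in the sources used here, so the values of these 4 genes are uncertain.

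CPSF1 (ENSG00000071894.17, chromosome 8, minus strand, 144393230-144409874), the large scaffold of the hexamer-binding module, had 136, 128 and 127 CPM with siNegative in HEK-293T and 231, 168 and 145 CPM with siHNRNPH1. These groups did not overlap, but the depleted libraries were spread widely, and the log2 change of 0.46 (SE 0.21) did not pass (edgeR BH-adjusted p = 0.239). Without replicate 1 it was 0.21 (SE 0.06, edgeR BH-adjusted p = 0.0253). In HT-1080 CPSF1 had 67.8, 69.8 and 69.0 CPM with siNegative and 73.8, 75.4 and 73.9 CPM with siHNRNPH1. This gap was small and did not pass (log2 change 0.04, SE 0.04, edgeR BH-adjusted p = 0.397). Scaled by library size alone, the change was 0.11 and passed (edgeR BH-adjusted p = 0.0399).

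FIP1L1 and WDR33 moved by less. FIP1L1 (ENSG00000145216.16), which bridges the module to poly(A) polymerase, had 37.7, 35.9 and 37.4 CPM in HT-1080 with siNegative and 34.6, 34.9 and 33.5 CPM with siHNRNPH1. It fell by 0.18 on the log2 scale (SE 0.05, edgeR BH-adjusted p = 0.0100). The log2 change was -0.16 without siHNRNPH1 replicate 3 (edgeR BH-adjusted p = 0.0509) and -0.11 with library size alone (0.0820), and neither passed. WDR33 (ENSG00000136709.12, chromosome 2, minus strand, 127705170-127811245), a WD-repeat protein that contacts the hexamer directly, had 72.5, 67.9 and 73.2 CPM against 68.5, 67.5 and 66.5 CPM in HT-1080. These libraries overlapped in CPM. Its log2 change of -0.14 (SE 0.05) had an edgeR BH-adjusted p of 0.0189, and 3 of the 6 fits that left out a library lost the call, namely those without siNegative replicate 3 and siHNRNPH1 replicates 2 and 3 (0.0643 to 0.0794). Over the 6 fits the log2 change lay between -0.18 and -0.13, and the edgeR BH-adjusted p between 3.89e-05 and 0.0794. With library size alone the log2 change was -0.076 and did not pass either (edgeR BH-adjusted p = 0.186). In HEK-293T, FIP1L1 was at 52.6, 53.4 and 52.6 CPM with siNegative and at 48.8, 59.9 and 57.9 CPM with siHNRNPH1, a log2 change of 0.04 (edgeR BH-adjusted p = 0.846). Its 2 agreeing depleted libraries lay above the controls, and without replicate 1 the log2 change was 0.10 (SE 0.03, edgeR BH-adjusted p = 0.0172). WDR33 in HEK-293T was at 128, 129 and 127 CPM and at 135, 134 and 131 CPM, with a log2 change of 0.04 (edgeR BH-adjusted p = 0.861). Leaving out replicate 1 gave -0.0045 (edgeR BH-adjusted p = 0.906).

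In the module that cuts the RNA, the scaffold and the inactive nuclease relative rose in HT-1080 while the nuclease itself did not pass. SYMPK (ENSG00000125755.19, chromosome 19, minus strand, 45815439-45863201) had 129, 133 and 135 CPM with siNegative in HT-1080 and 169, 165 and 167 CPM with siHNRNPH1. No depleted library reached down to the controls. The log2 change was 0.27 (SE 0.04, edgeR BH-adjusted p = 2.42e-04). In HEK-293T, SYMPK was at 135, 135 and 135 CPM with siNegative and at 169.8, 118 and 103 CPM with siHNRNPH1, so that the depleted libraries fell on both sides of the controls. The log2 change was -0.07 (SE 0.23, edgeR BH-adjusted p = 0.880), and without replicate 1 SYMPK fell by 0.34 (SE 0.04, edgeR BH-adjusted p = 1.51e-05).

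CPSF2 (ENSG00000165934.13, chromosome 14, plus strand, 92121516-92172145) had 109.9, 93.7 and 104.5 CPM with siNegative in HT-1080 and 128, 118 and 124 CPM with siHNRNPH1. The groups did not overlap, and the log2 change of 0.20 (SE 0.06) passed (edgeR BH-adjusted p = 0.0137), though not without siHNRNPH1 replicate 1 (0.0666). In HEK-293T the 3 siNegative libraries lay at 162, 163 and 162 CPM and the depleted ones at 111, 210.2 and 220.5 CPM. Replicate 1 was below the controls and the other replicates above them. The log2 change was 0.12 (SE 0.25, edgeR BH-adjusted p = 0.803) with all libraries and 0.35 (SE 0.03, edgeR BH-adjusted p = 9.48e-10) without replicate 1. CPSF3 (ENSG00000119203.14, chromosome 2, plus strand, 9423006-9473360), the endonuclease, was at 44.9, 45.6 and 43.3 CPM and at 43.7, 42.1 and 45.5 CPM in HT-1080, and these values overlapped (log2 change -0.09, SE 0.05, edgeR BH-adjusted p = 0.134). In HEK-293T it was at 100.3, 101 and 101 CPM with siNegative and at 92.9, 86.7 and 91.2 CPM with siHNRNPH1. Here all 3 depleted libraries, replicate 1 included, lay below the controls. The log2 change of -0.18 (SE 0.12) did not pass (edgeR BH-adjusted p = 0.369) and was -0.24 (SE 0.03, edgeR BH-adjusted p = 1.62e-06) without replicate 1.

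The CFIm subunits went different ways in HT-1080. NUDT21 (ENSG00000167005.14, chromosome 16, minus strand, 56429141-56451352), the subunit that reads the UGUA motif, had 140.3, 134 and 139 CPM with siNegative and 90.2, 92.8 and 89.1 CPM with siHNRNPH1. The groups were far apart relative to their spread of 3.39 and 1.89 CPM (SD, n = 3), and NUDT21 fell by 0.67 (SE 0.04, edgeR BH-adjusted p = 5.80e-07), the largest change of the 10 factors in that line. Every fit that left out 1 HT-1080 library kept this call. CPSF6 (ENSG00000111605.18, chromosome 12, plus strand, 69239546-69274354), one of the alternative partners of NUDT21, had 139, 129.8 and 140.7 CPM with siNegative and 114, 116 and 115.5 CPM with siHNRNPH1. It fell by 0.31 (SE 0.04, edgeR BH-adjusted p = 1.46e-04). CPSF7 (ENSG00000149532.16), the other partner, was at 100.2, 90.4 and 98.4 CPM with siNegative and at 115.5, 111 and 114 CPM with siHNRNPH1 in HT-1080. All depleted libraries were above the controls, and the log2 change was 0.17, without a test.

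In HEK-293T, NUDT21 was at 194, 191 and 189 CPM with siNegative and at 86.7, 191 and 202 CPM with siHNRNPH1. Only replicate 1 was low. The log2 change was -0.30 (SE 0.30, edgeR BH-adjusted p = 0.573), and -0.02 (SE 0.03, edgeR BH-adjusted p = 0.610) without that library. CPSF6 was at 193, 193 and 191 CPM and at 114, 210.3 and 211 CPM, again with replicate 1 alone below the controls. Its log2 change went from -0.14 (SE 0.23, edgeR BH-adjusted p = 0.732) to 0.07 (SE 0.03, edgeR BH-adjusted p = 0.0268) without replicate 1. CPSF7 was at 197, 193 and 197 CPM with siNegative and at 144, 183 and 184 CPM with siHNRNPH1. All 3 depleted libraries lay below the controls, and the log2 change was -0.23, or -0.15 without replicate 1, again without a test.

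Whether a change differed between the lines was tested as a cell line by siRNA interaction over all 12 short-read libraries. It called 0 of the 9 factors (edgeR BH-adjusted p under 0.05), where 19% of 21276 genes passed, 8.13% higher and 10.8% lower in HT-1080. An unadjusted p under 0.05 was found for 2 of the 9, a count for which no share of all genes is given here. The closest was CPSF4, with a log2 difference (HT-1080 minus HEK-293T) of -0.73 (SE 0.26) and an edgeR BH-adjusted p of 0.0753. When replicate 1 of HEK-293T siHNRNPH1 was left out, 8 of the 9 passed, with SYMPK the higher one in HT-1080 and the other 7 lower, where 49% of genes passed, 22.7% higher and 26.4% lower. The exception was CPSF3, at 0.09 (edgeR BH-adjusted p = 0.245). In that fit NUDT21 differed by -0.70 (edgeR BH-adjusted p = 2.95e-08), CPSF6 by -0.43 (5.73e-06), CPSF4 by -0.42 (1.73e-04) and SYMPK by 0.56 (3.34e-06). With all libraries the NUDT21 difference was -0.43 (SE 0.30, edgeR BH-adjusted p = 0.359), so the call on it rests on leaving out 1 library.

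A list of 22 other genes of 3′ end processing gave the surroundings of these factors. In HT-1080, 14 of the 22 passed, 2 higher and 12 lower, where 65.3% of all genes passed, 32.7% higher and 32.6% lower. Their median log2 change was -0.23, against 0.01 for all genes. In HEK-293T, edgeR called 0 of the 22 with all libraries, where 10% of 19966 genes passed. At an unadjusted p under 0.05 it was 3, against 5267 of the 19966 genes. DESeq2 called 2, where 10.3% of 33482 genes passed. Without replicate 1, edgeR called 21 of the 22, 9 higher and 12 lower, where 61.8% of all genes passed. In that setting 11 of the 22 passed in both lines in the same direction and 3 in opposite directions. Over all 15063 genes tested in both lines, 31.7% did so in the same direction, against 5.42% of 15010 with replicate 1 included, when none of the 9 factors did. Without replicate 1, 2 of the 9 factors, CPSF4 and CPSF2, passed in both lines in the same direction. In that setting 3 of the 9, SYMPK, FIP1L1 and CPSF6, passed in opposite directions. The share of all genes that passed in opposite directions is not given here.

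Among those 22 genes, PCF11 and INTS11 had the largest common changes. For PCF11, which couples cleavage to termination of transcription, the log2 change was -0.39 in both lines without replicate 1, and edgeR gave BH-adjusted p-values of 5.75e-10 (HEK-293T) and 0.00119 (HT-1080). INTS11, the nuclease of the Integrator complex and a relative of CPSF3, had -0.44 for HEK-293T (edgeR, BH-adjusted p = 5.80e-06) and -0.38 for HT-1080 (8.77e-05). PABPN1, the nuclear poly(A) binding protein, changed by -0.45 and -0.30, the phosphatase subunit PPP1CA by -0.25 and -0.26, and the poly(A) polymerase PAPOLG by 0.32 and 0.24. None of these 5 passed in HEK-293T with all libraries, where their log2 changes were -0.67, -0.10, -0.27, 0.24 and 0.03. PPP1CA was there positive, opposite to its direction without replicate 1.

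Genes of histone pre-mRNA processing, a pathway that shares CPSF3, CPSF2 and SYMPK but adds no poly(A) tail, gave 4 calls among 5 genes in HT-1080, all lower, where 65.3% of all genes passed and 32.6% were lower. The other one, ZNF473, had a log2 change of -0.03 (edgeR BH-adjusted p = 0.683). SLBP, which binds the histone stem-loop, fell by 1.15 (SE 0.05, edgeR BH-adjusted p = 1.01e-07) from a mean of 52.9 to 25.0 CPM. The HEK-293T value was -0.20, which did not pass (edgeR, BH-adjusted p = 0.399), or -0.29 with replicate 1 left out (2.28e-07). The interaction with all libraries called 7 of the 22, 1 higher and 6 lower in HT-1080, where 19% of all genes passed. With library size alone it called 5. By p-value, CSTF2, which binds the GU-rich element downstream of the cleavage site, came first with a difference of -1.01 (edgeR BH-adjusted p = 1.36e-04), followed by SLBP at -1.03 (8.17e-04) and the histone factor ZNF473 at -0.63 (0.00767). The single-line values of CSTF2 were 0.25 for HEK-293T (edgeR, BH-adjusted p = 0.215) and -0.70 for HT-1080 (7.87e-07). Leaving out replicate 1 gave 0.22 for HEK-293T, which passed (2.68e-06), in the opposite direction to HT-1080.

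The levels of the factors in siNegative cells of the 2 lines gave a comparison that the choice of the genes had not used. All 10 factors passed, where 86.6% of 19776 tested genes did. CPSF4 and SYMPK were higher in HT-1080 and the other 8 lower, while among all genes 40.8% were higher and 45.8% lower. CPSF3 showed the largest difference, at -0.92 on the log2 scale (SE 0.04, edgeR BH-adjusted p = 1.40e-08), with 101 CPM ± 0.51 in HEK-293T and 44.6 CPM ± 1.18 in HT-1080 (SD, n = 3). CPSF7 differed by -0.77 (SE 0.05, edgeR BH-adjusted p = 1.14e-07), from 196 CPM ± 2.65 to 96.3 CPM ± 5.21. Its CFIm partners differed by less, NUDT21 by -0.22 (SE 0.04, edgeR BH-adjusted p = 4.23e-04) and CPSF6 by -0.24 (SE 0.04, 3.87e-04). CPSF4 went the other way, at 0.84 (SE 0.05, edgeR BH-adjusted p = 7.52e-08), with 42.6 CPM ± 1.53 and 64.1 CPM ± 2.10. SYMPK differed by 0.22 (SE 0.04, edgeR BH-adjusted p = 3.92e-04), but scaled by library size alone by -0.03 (0.486). That scaling moved the median of all genes from -0.10 to -0.36, and the directions of the other 9 factors were the same under both.

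**Figure D2:**
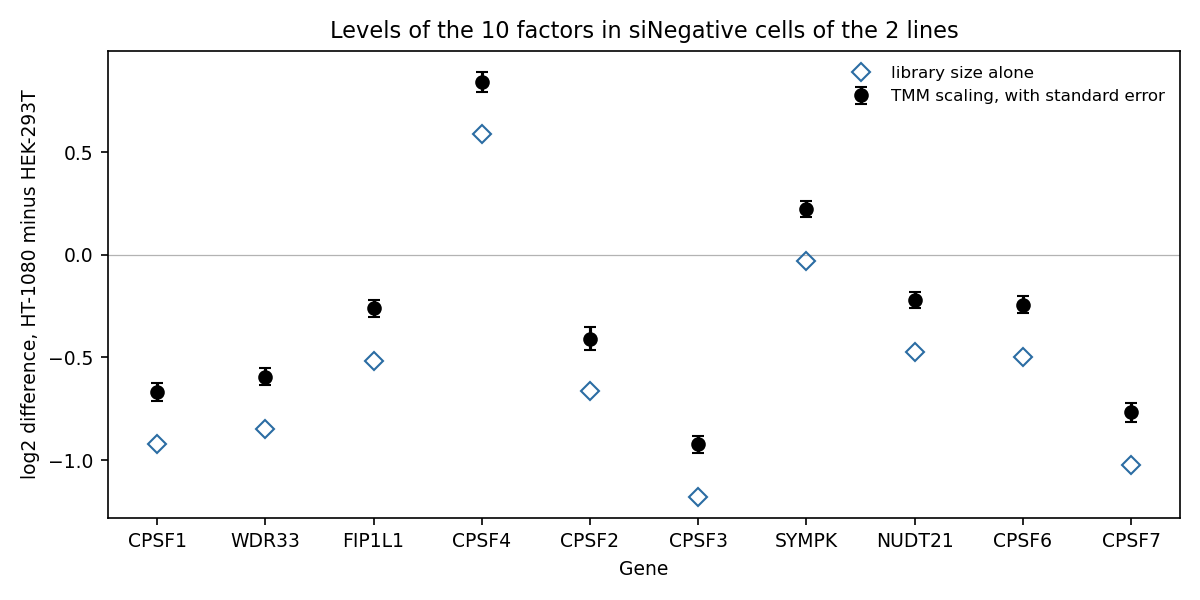
Difference in level of each factor between siNegative HT-1080 and siNegative HEK-293T cells on the log2 scale (filled points, edgeR estimate with scaling by the trimmed mean of M-values and its standard error, n = 3 libraries per line; open diamonds, library size alone). CPSF4 lies at 0.84 and CPSF3 at -0.92, and SYMPK is the single factor whose sign differs between the scalings.

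Within CPSF7, the balance of its transcripts differed between the siRNAs in both lines. The tables list 26 transcripts, of which 3 had a mean share of at least 5% of the gene's expected counts in any group. ENST00000340437.8, a minor form in control cells, held 1.77%, 1.02% and 1.03% in HEK-293T with siNegative and 15.0%, 14.0% and 12.6% with siHNRNPH1. In HT-1080 it held 1.06%, 1.98% and 1.29% and then 12.8%, 6.52% and 8.83%. No depleted library came near a control. As a level, this was 2.49 CPM ± 0.86 against 23.5 CPM ± 1.92 in HEK-293T and 1.38 CPM ± 0.38 against 10.7 CPM ± 3.81 in HT-1080 (SD, n = 3), from 29 to 3080 counts per library.

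ENST00000439958.8, the most used form in control cells, moved the other way. It held 56.8%, 55.8% and 55.3% in HEK-293T with siNegative and 44.2%, 47.4% and 43.5% with siHNRNPH1. In HT-1080 the shares were 50.1%, 51.5% and 51.1% and then 41.7%, 47.8% and 43.4%. In both lines every depleted library was below every control. ENST00000394888.8, the second form in control cells, overlapped between the siRNAs in both lines. Its means were 36.2% ± 1.20 and 37.2% ± 3.28 in HEK-293T and 39.3% ± 0.14 and 37.7% ± 2.35 in HT-1080 (SD, n = 3). Together the 3 transcripts held 93.5% and 96.1% of the gene in HEK-293T and 91.6% and 91.4% in HT-1080, with siNegative and siHNRNPH1. Replicate 1 of HEK-293T siHNRNPH1, which stood apart at gene level, lay close to replicates 2 and 3 in these shares. ENST00000340437.8 and ENST00000439958.8 thus had shares that do not overlap in either line and differ by at least 5 points in the same direction. That held for 5.8% of 25700 transcripts tested in both lines. As CPSF7 was selected on these shares, its meeting the rule was fixed in advance and is no evidence of a rare pattern. ENST00000340437.8 also reached the 5% needed to be tested only in the siHNRNPH1 groups. The difference for ENST00000340437.8 was 12.6 points in HEK-293T and 7.94 points in HT-1080.

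**Figure D3:**
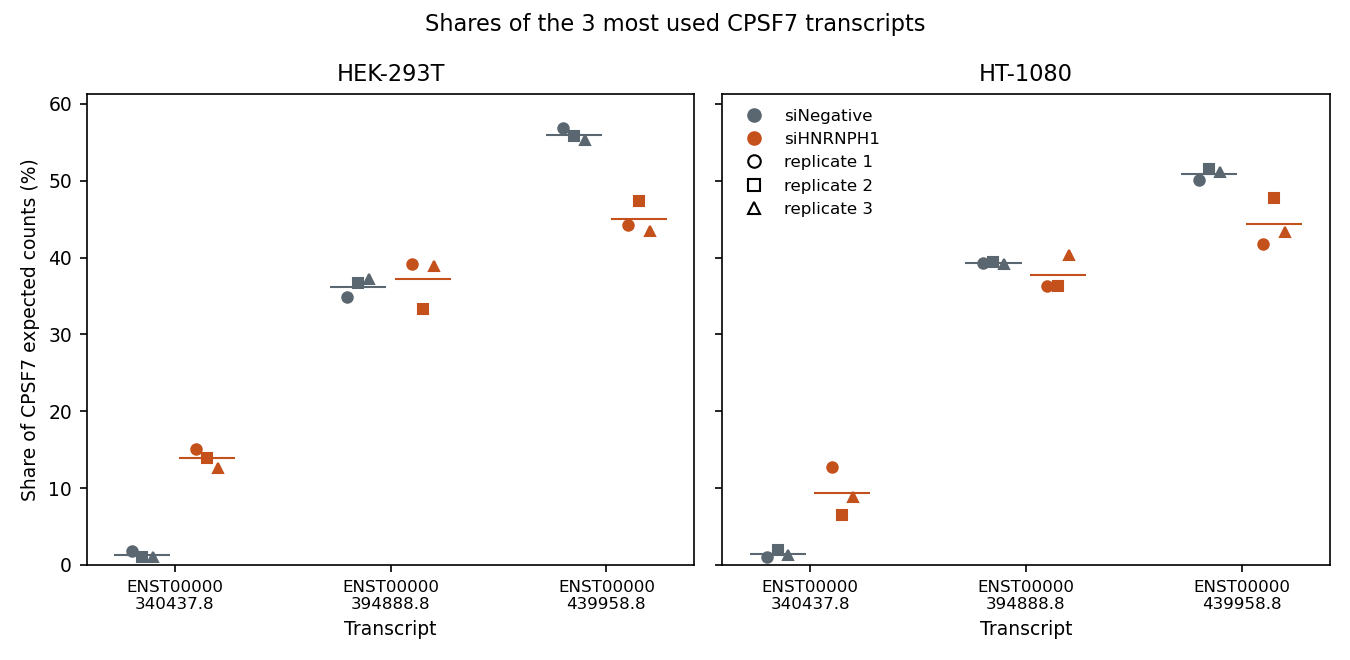
Share of the CPSF7 expected counts held by each of its 3 most used transcripts, in percent, per short-read library (points, shape by replicate; short lines, group means; n = 3). ENST00000340437.8 lies under 2% in all siNegative libraries and between 6.52% and 15.0% with siHNRNPH1, while ENST00000394888.8 overlaps between the siRNAs.

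The IsoSeq models show how CPSF7 transcripts are built, though not how abundant each is, since a model counts once. CPSF7 lies on the minus strand of chromosome 11 between 61402649 and 61430017 (GRCh38.p13). It had 15 and 30 models in the HEK-293T siNegative and siHNRNPH1 pools and 17 and 21 in the HT-1080 pools. The HEK-293T siHNRNPH1 file was the largest, with 94847 models of all genes against 64705 for its control. The deposited tables do not give exons for the Ensembl identifiers, so no model was assigned to a transcript of the short-read tables. With 1 pool per group there is no test, and the intervals given are exact Clopper-Pearson 95% intervals for counts of models. They treat models as independent draws, which distinct models are not, so they serve only as a guide to how few models there were.

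At the 5′ end, 3 of the donor sites in use were joined to the same exon of 109 bases at 61429182-61429290. The intron of 623 bases, with the most upstream donor, was in 8 of 10 models of HEK-293T siNegative and 12 of 19 of siHNRNPH1 that span it, and in 8 of 8 and 11 of 16 in HT-1080. The introns of 550 and 466 bases use donors further downstream. The 550-base form was in 0 of 10 and 2 of 19 models in HEK-293T and in 0 of 8 and 2 of 16 in HT-1080. The 466-base form was in 2 of 10 and 6 of 20, and in 0 of 8 and 3 of 16. These shares were 20.0% (2.5% to 55.6%) and 30.0% (11.9% to 54.3%) in HEK-293T, so the intervals overlap widely. Counted over all models of the gene, the HT-1080 difference for the 623-base intron turned from -31.2 to 5.3 points. That count includes models that do not span the intron and so cannot hold it. In HT-1080, 8 of 17 siNegative models and 16 of 21 siHNRNPH1 models span it.

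In the middle of the gene, an exon that begins at 61420094 ended at 61419922 or at 61419949, giving exons of 173 or 146 bases that differ by 27 bases, a whole number of codons. The 146-base form was in 6 of 12 and 11 of 24 spanning models in HEK-293T and in 7 of 12 and 8 of 19 in HT-1080, with intervals from 20.3% to 84.8% over the 4 pools. The neighbouring exon of 104 bases at 61420470-61420573 was in 10 of 12 and 17 of 22 models in HEK-293T and in 8 of 12 and 17 of 18 in HT-1080. Further downstream, the intron of 320 bases at 61415785-61416104 was spliced in 13 of 14 and 24 of 28 models in HEK-293T and in 13 of 14 and 18 of 21 in HT-1080. Models that kept it had a single exon of 854 bases, in 4 of 25 HEK-293T and 3 of 20 HT-1080 models with siHNRNPH1 and in 1 of 12 with siNegative in each line. An extra exon whose 3′ end is joined across the intron 61420574-61421053, singled out after its values were seen, was present in 1 of 22 HEK-293T and 3 of 18 HT-1080 models with siHNRNPH1. It was in 0 of 12 siNegative models in each line, for which the upper end of the interval is 26.5%.

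**Figure D4:**
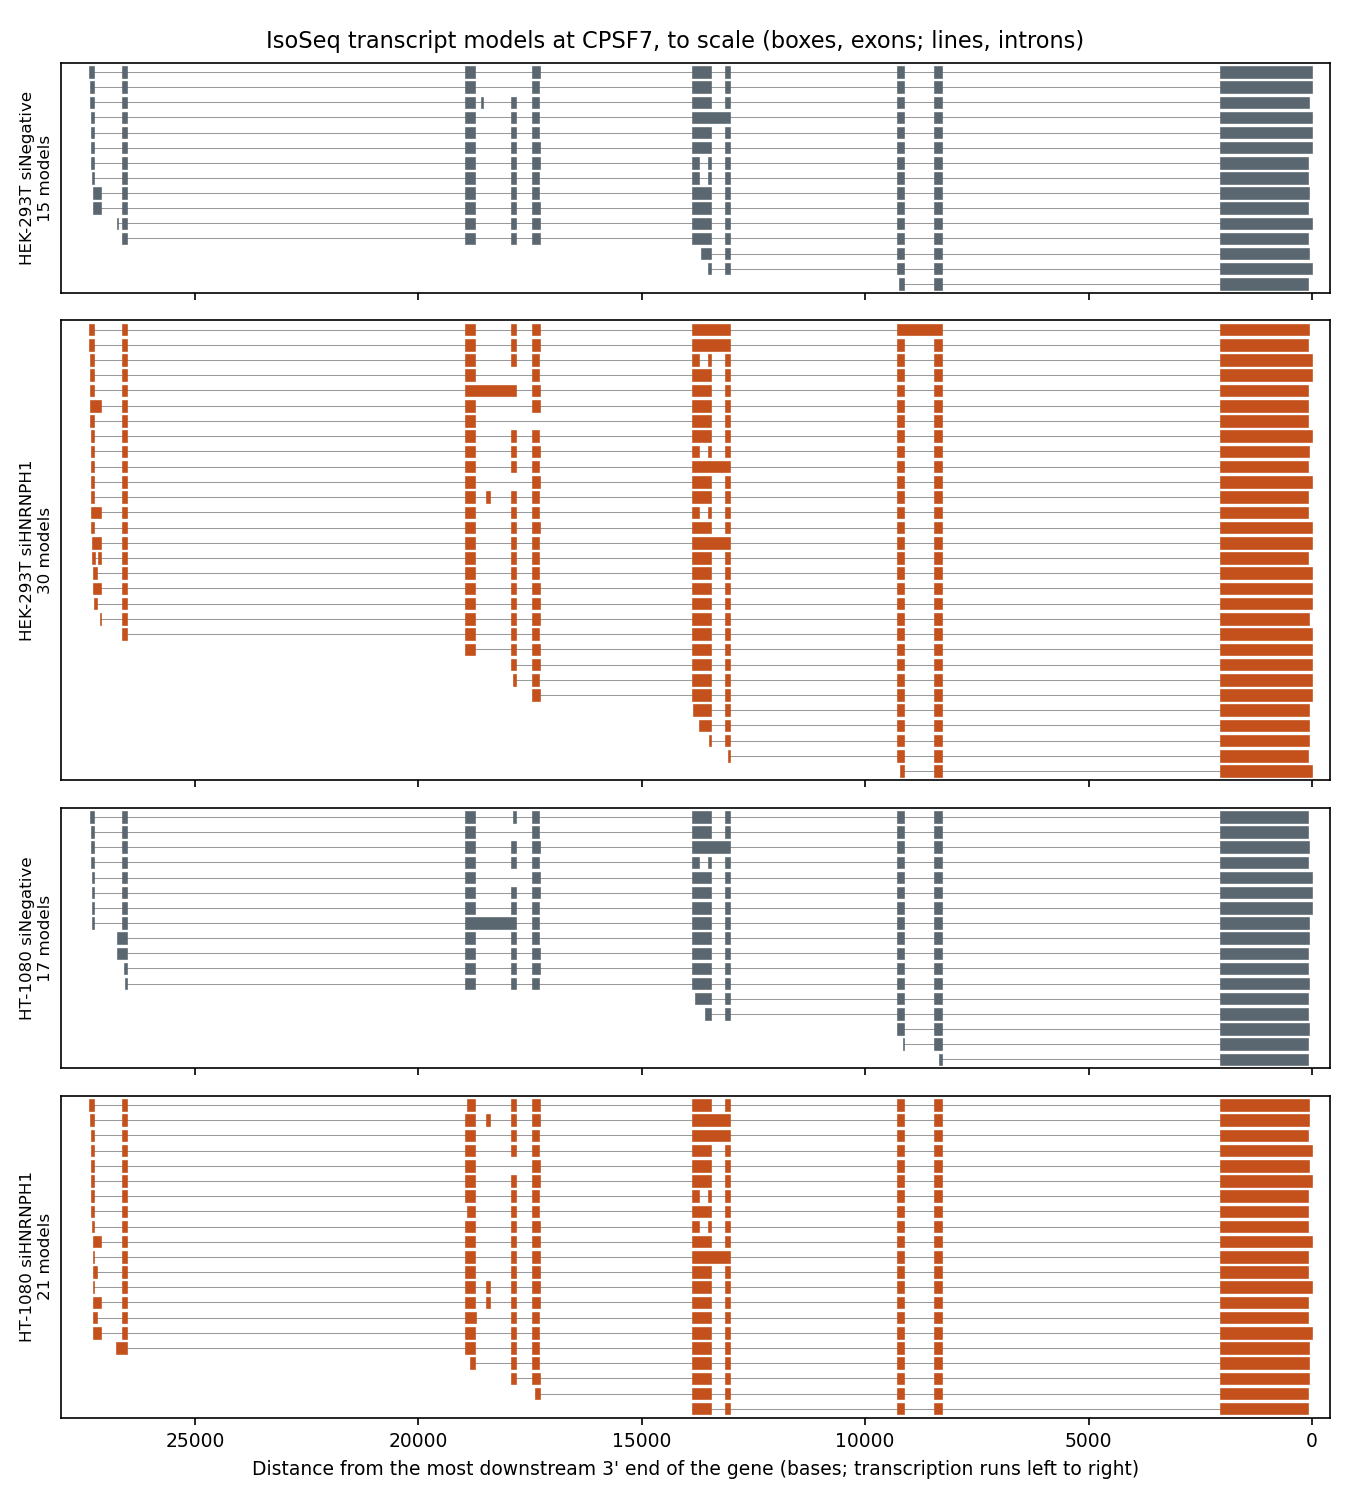
All 83 CPSF7 transcript models of the 4 IsoSeq pools, drawn to scale against the distance in bases from the most downstream 3′ end (boxes, exons; lines, introns; 1 row per model). The pools hold 15, 30, 17 and 21 models from top to bottom, the last exon is shared by all of them, and the models differ in the first exon and in the exons in the middle of the gene.

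The last exon of CPSF7 was common to all 83 models, and their 3′ ends fell into 2 groups 67 bases apart, at 61402649-61402656 and 61402716-61402732. The more distal group held 7 of 15 and 15 of 30 models in HEK-293T and 3 of 17 and 5 of 21 in HT-1080. The exact intervals were 21.3% to 73.4% and 31.3% to 68.7% in HEK-293T and 3.8% to 43.4% and 8.2% to 47.2% in HT-1080, and they overlap in each line. For 6 other factors the ends of models were more spread, counting groups of at least 3 models. The widest were WDR33, with 3 groups of ends over 57196 bases, and SYMPK, with 3 over 34945 bases. CPSF6 had 10 groups over 9046 bases, CPSF2 had 9 over 3922 bases and FIP1L1 had 6 over 3333 bases. NUDT21 had 3 over 2538 bases, and its most distal end, on chromosome 16 at 56429141-56429143, was in 5 of 7 and 6 of 8 models in HEK-293T and in 3 of 7 and 3 of 6 in HT-1080. For CPSF1, CPSF3 and CPSF4 a single group of ends was found.

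FIP1L1 was the other factor with a transcript of this pattern in both lines. As 5.8% of all 25700 transcripts tested in both lines met the same rule, this does not set the factors apart. ENST00000306932.10, its most used form in control cells, held 34.4%, 31.7% and 31.7% in HEK-293T with siNegative and 19.6%, 19.2% and 20.2% with siHNRNPH1. Replicate 1 was here level with replicates 2 and 3. In HT-1080 the shares were 36.5%, 33.3% and 39.3% and then 28.4%, 28.3% and 27.4%. In both lines the depleted libraries were all below the controls, with mean differences of -12.9 and -8.33 points. As the log2 ratio of this transcript to the rest of the gene, the change was -0.98 (SE 0.17) in HEK-293T, with a limma BH-adjusted p of 0.0527, and -0.55 (SE 0.16) in HT-1080, with 0.124. Neither passed. Without replicate 1 the HEK-293T change passed (-0.97, limma BH-adjusted p = 0.00791), and by limma diffSplice the HT-1080 change passed (BH-adjusted p = 0.0231) and the HEK-293T change did not (0.149).

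The other FIP1L1 transcripts, described after their values were seen, filled the difference in different ways. ENST00000358575.9 held 18.8%, 16.9% and 15.1% in HEK-293T with siNegative and 27.2%, 25.8% and 24.2% with siHNRNPH1, without overlap. In HT-1080 it held 26.8%, 22.3% and 21.0% and then 28.8%, 31.4% and 26.0%, which overlap. ENST00000337488.11 stood at 7.77% in replicate 1 of HEK-293T siHNRNPH1 and at 24.8% and 25.4% in replicates 2 and 3, against 16.8% to 20.0% in the controls. Neither difference passed in HEK-293T with all libraries (limma BH-adjusted p = 0.121 for ENST00000358575.9 and 0.927 for ENST00000337488.11). Without replicate 1 both did, at 0.0364 and 0.0472.

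**Figure D5:**
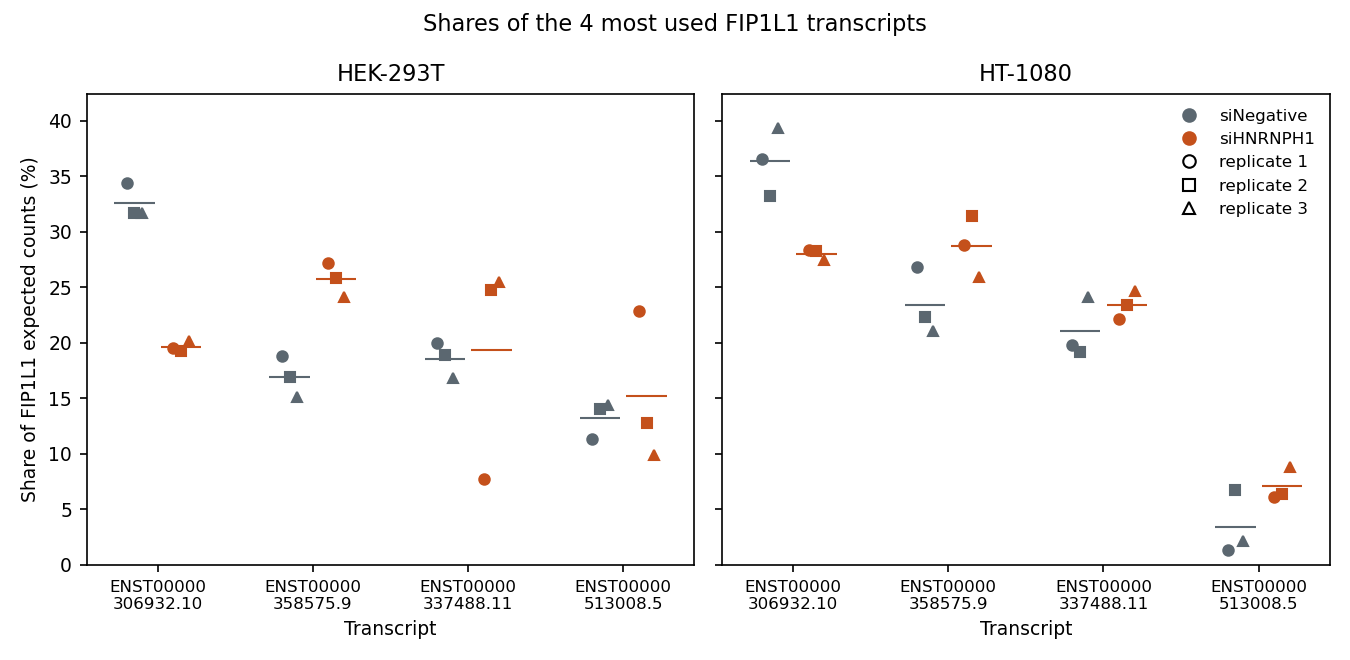
Share of the FIP1L1 expected counts held by 4 of its transcripts, in percent, per short-read library (points, shape by replicate; short lines, group means; n = 3). For ENST00000306932.10 all siHNRNPH1 libraries lie below all siNegative libraries in both lines, and for ENST00000337488.11 replicate 1 of HEK-293T siHNRNPH1 lies at 7.77%, apart from the rest of its group.

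At FIP1L1, on the plus strand of chromosome 4 between 53377579 and 53462698, an exon of 69 bases at 53391430-53391498 was in 5 of 18 models of the HEK-293T siNegative pool and 24 of 40 of the siHNRNPH1 pool. The shares were 27.8% (9.7% to 53.5%) and 60.0% (43.3% to 75.1%). In HT-1080 it was in 2 of 13 and 4 of 11 models, or 15.4% (1.9% to 45.4%) and 36.4% (10.9% to 69.2%). An exon of 108 bases at 53414615-53414722 was in 6 of 17 and 21 of 40 models in HEK-293T and in 5 of 13 and 7 of 11 in HT-1080. Both exons were thus in a larger share of the models with siHNRNPH1 in each line, with overlapping intervals and no test. The 2 exons were looked at after seeing the data. The exons on either side of the 69-base exon were in all models that span them.

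For usage of the other factors, the power of the test is not known. On simulated data it recovered 0% of transcripts changed 3-fold in HEK-293T and 4.5% in HT-1080. Those data drew each transcript independently, so shifts shared by the transcripts of a gene became spread of their shares. The simulated test called 0 transcripts in HEK-293T and the real one 944, so the simulation does not give the power here. A transcript that did not pass is still not shown to be unchanged. The usage test called 0 of 23 transcripts of factors other than CPSF7 in HEK-293T, where 2.47% of 38243 transcripts passed. At an unadjusted p under 0.05 it was 3, a count for which no share of all transcripts is given here. By diffSplice it was 0, and diffSplice too recovered 0% in HEK-293T on the simulated data. Without replicate 1 the usage test called 8, of which 7 were among the 23, where 17.4% of transcripts passed. In HT-1080 it called 3 of 24, where 4.01% of 32282 passed. By diffSplice, which recovered 57.5% of the changed transcripts there on the same simulated data, it was 6. Over all transcripts diffSplice called more than the usage test did, as given further below. The 4.01% is therefore not the background for these 6. Shares did not overlap between the siRNAs for 9 of the 23 and 8 of the 24, against 32.8% and 29.7% of all transcripts tested.

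The 3 transcripts called in HT-1080 all belong to SYMPK and are named because they passed. ENST00000245934.12 held 54.0%, 52.9% and 57.2% with siNegative and 72.7%, 73.4% and 70.8% with siHNRNPH1. ENST00000599460.5 held 24.03%, 21.6% and 20.5% and then 10.6%, 10.0% and 12.3%. ENST00000593504.5 held 8.04%, 7.59% and 9.11% and then 3.08%, 3.90% and 3.87%. The main form took a larger share of the gene in all depleted libraries and the other forms a smaller one. The changes of the log2 ratio were 1.11 (SE 0.12), -1.19 (SE 0.16) and -1.26 (SE 0.18), with limma BH-adjusted p-values of 0.0122, 0.0196 and 0.0241. These calls were fragile: with 1 HT-1080 library left out, the adjusted p lay between 0.0375 and 0.0590 for ENST00000245934.12, between 0.0534 and 0.0774 for ENST00000599460.5 and between 0.0553 and 0.0822 for ENST00000593504.5. By diffSplice the BH-adjusted p of these was 3.66e-06, 2.85e-05 and 6.27e-04. In HEK-293T, ENST00000245934.12 held 66.0%, 70.2% and 67.1% and then 67.5%, 64.4% and 62.8%, with overlap. The level of that transcript in HT-1080 went from 72.3 CPM ± 4.13 to 120.8 CPM ± 2.41 (SD, n = 3).

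CPSF3 and WDR33, whose transcripts and that of NUDT21 are named after their values were seen, drew most of their counts from 1 transcript each in HEK-293T. ENST00000238112.8 of CPSF3 held 99.2%, 98.6% and 99.0% with siNegative and 97.6%, 96.8% and 96.9% with siHNRNPH1. ENST00000322313.9 of WDR33 held 89.8%, 90.0% and 90.5% and then 88.0%, 88.0% and 88.1%. The groups did not overlap for either, and neither passed with all libraries (limma BH-adjusted p = 0.0575 and 0.359). Without replicate 1 both passed, at 0.0149 and 0.0456. In HT-1080 both overlapped. NUDT21, whose level fell in HT-1080, drew 92.5%, 88.5% and 93.5% of its counts there from ENST00000300291.10 with siNegative and 87.1%, 86.2% and 87.8% with siHNRNPH1 (limma BH-adjusted p = 0.168). That transcript went from 126 CPM ± 6.57 to 78.9 CPM ± 0.94 (SD, n = 3). The mean of the whole gene went from 137.8 to 90.7 CPM, so its fall lay in that transcript.

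The genes whose level followed that of CPSF7 most closely were found by correlating log2 CPM, with the mean of each line subtracted, over the 12 short-read libraries. Over the 12171 genes whose counts averaged 50 or more in both lines, the highest Pearson r belonged to TPP1 (0.994), TSTD2 (0.993), ERVK13-1 (0.990), KDM5B (0.988) and ANKRD52 (0.988). The other factors ranged from -0.835 for CPSF4 to 0.718 for CPSF2, and the CFIm partners NUDT21 and CPSF6 reached 0.275 and 0.447. These values describe likeness across libraries that include replicate 1 of HEK-293T siHNRNPH1, and the libraries of a group share their treatment.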

How the data were processed

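RNA of HEK-293T and HT-1080 cells was measured in 12 short-read libraries and 4 IsoSeq pools. The deposited short-read tables hold expected counts per transcript, which the authors made with RSEM on GRCh38.p13, per the submitters' processing notes. Aligner, annotation release, trimming and strandedness are not given in the sources used here. As deposited, each IsoSeq file gives models of transcripts by their exon coordinates, without read counts. RefSeq gene spans served only to name loci.

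Expected counts were summed per gene, rounded and tested with edgeR 4.0.16 (robust quasi-likelihood test, TMM scaling, filterByExpr, R 4.3.3), with p-values adjusted by the Benjamini-Hochberg (BH) method over all genes tested and a threshold of 0.05. CPM are counts scaled to a common library total. Transcript usage was tested with limma 3.58.1 on the log2 ratio of a transcript to the rest of its gene (0.5 counts added), for genes with at least 50 counts in every library and transcripts with a share of at least 5% in either group. Alternatives used DESeq2 1.42.0, limma diffSplice, other scalings and filters, a replicate block and each library left out. IsoSeq shares carry exact Clopper-Pearson 95% intervals (Python 3.11.15, SciPy 1.17.1), which treat models as independent draws. Models are distinct structures counted once, so the intervals show only how few models there were. They measure neither the error of read counts nor the spread between replicates. Ends of models within 24 bases were grouped, and groups of at least 3 models were counted.

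On simulated counts with 200 genes changed 3-fold, the gene test recovered 75% in HEK-293T (of 19612 genes simulated), 99.5% in HT-1080 (15850), 78.5% for the interaction (20504) and 99% between the control lines (19228). In each of these comparisons the factors differed by less than 3-fold. The largest log2 change between the siRNAs was -0.67, for NUDT21 in HT-1080. Between the control lines it was -0.92, for CPSF3. Recovery of changes as small as those of the factors was not tested, so the gene test's power for them is not known. The usage test recovered 0% in HEK-293T and 4.5% in HT-1080, where 3 of its 15 calls were false. Its simulated transcripts were drawn independently of the rest of their gene, so these values do not give its power on the real data.

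Replicates differed beyond sampling noise (chi-square per degree of freedom 3.39 to 847 in HEK-293T and 1.78 to 17.8 in HT-1080), so none was a copy of another. No per-sample column was left unmatched. The 10 factors, the 22 other genes and the rules were chosen with earlier results of these data known. The rule for names took the 10 factors and HNRNPH1, the other 3′ end genes called in both lines in the same direction (first 6 by the smaller change) and the first 3 by p in the interaction, the CPSF7 transcripts with a share of at least 5%, transcripts of other factors whose shares did not overlap in either line and moved by at least 5 points the same way, the 5 CPSF7 junctions whose shares moved most in the same direction in both lines, and the 5 genes most like CPSF7. Other names were chosen after their values were seen, and the text says so.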

Additional observations from a re-analysis of the deposited data

Results flagged for a closer look

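In CPM, the depleted libraries of CPSF7 and WDR33 lay on opposite sides of their siNegative means in the 2 lines. For CPSF7, every HEK-293T siHNRNPH1 library lay below, and every HT-1080 one above, its siNegative mean in CPM. The log2 change in HT-1080 minus that in HEK-293T was 0.33, and this difference was not tested because CPSF7 was chosen on the same contrast. For WDR33, every HEK-293T siHNRNPH1 library lay above, and every HT-1080 one below, its siNegative mean. The difference was -0.25 (edgeR interaction, BH-adjusted p = 0.160), and without replicate 1 of HEK-293T siHNRNPH1 it was -0.19 (0.0118). WDR33 did not pass in HEK-293T, where its edgeR log2 change was 0.04 (BH-adjusted p = 0.861) and turned to -0.0045 (0.906) without that replicate, the sign it had in HT-1080.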

How the results depend on the processing

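The counts of calls in HEK-293T depended on the processing and on replicate 1 of siHNRNPH1, and the cause was not tested. Over all genes, edgeR called 1997 in HEK-293T with all libraries. The number was 1302 with no filter on low counts, 3461 with DESeq2, 4550 with all 12 libraries in 1 fit and 0 to 12557 with 1 library left out. The factors called in HEK-293T were 1 with all 12 libraries in 1 fit and 0 to 7 with 1 left out. Of the other 3′ end genes, 1 was called with library size alone, 2 with DESeq2, 5 with all 12 in 1 fit and 0 to 21 with 1 left out. In HT-1080 the fit of all 12 libraries called 6237 genes, 2 factors and 5 other 3′ end genes. With 1 HT-1080 library left out it was 9535 to 11625 genes, 5 to 7 factors and 13 to 16 other 3′ end genes. The interaction called 3 other 3′ end genes with no filter, and 2772 to 9535 genes, 0 to 8 factors and 3 to 11 other 3′ end genes with 1 left out. Between the control lines it was 15610 to 18004 genes, 10 factors in each fit and 18 to 20 other 3′ end genes.

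For usage, diffSplice called 1571 transcripts in HEK-293T and 3701 in HT-1080, of which 6 were of factors other than CPSF7. Shares of at least 1% or of at least 10% each gave 1 such call in HEK-293T. With 1 library left out it was 0 to 6643 transcripts and 0 to 8 of factors in HEK-293T, and 108 to 649 and 0 to 2 in HT-1080.

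Same-numbered replicates deviated together weakly at most, with r from -0.002 to 0.098 over the 6 pairs. Differently numbered pairs had r from -0.097 to 0.063, so the ranges overlap. The numbers were not taken to pair the samples. With the replicate block, edgeR called 0 genes in HEK-293T, and 2535 genes and 3 other 3′ end genes in the interaction. The usage test with the replicate block called 0 transcripts in each line, those of factors included.

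Some signs turned. In HEK-293T, CPSF4 was at -0.00011 with the replicate block and SYMPK at 0.0032 with all 12 libraries in 1 fit. With 1 library left out, the HEK-293T log2 changes ranged from -0.047 to 0.35 for CPSF2, from -0.24 to 0.18 for CPSF4, from -0.28 to 0.074 for CPSF6, from -0.00035 to 0.10 for FIP1L1, from -0.0045 to 0.056 for WDR33 and from -0.34 to 0.082 for SYMPK. Interaction differences ranged from -0.20 to 0.16 for CPSF2 and from -0.042 to 0.094 for CPSF3. Between the control lines SYMPK was at -0.030 with library size alone. Counted over all models of CPSF7, the HT-1080 differences were 5.3 points for the 623-base intron and 9.2 points for the 320-base intron. Both counts include models that do not span the intron and so cannot hold it.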
